A study of Mus musculus with 18 samples.

Results

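The expressed genes of a 30 Mb stretch of mouse chromosome 5 were compared between 18 tumours, 10 labelled EV and 8 labelled p95HER2. The stretch was defined as all genes of the count table that start between 100 and 130 Mb on chromosome 5 (mm10, GENCODE positions) and reach a mean of at least 2 CPM (counts scaled to the size of the library) over the 18 tumours, without the Oas and Gbp gene families. Of 850 genes that start there, 653 had a count, and 262 of the 54532 genes in the table met the rule. Of these members, 244 are protein coding and 18 are not, and all 262 passed the filter of the gene test. The members' part of the chromosome was selected on the group difference in these same counts, lower in p95HER2 tumours, so every difference between the groups given for its members is a description and was not tested again.

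All 18 tumours grew from PB2 cells, a mouse breast cancer line, and the mice of both groups were fed a doxycycline diet. Tumours differed by genotype, given as EV or as p95HER2, a shortened version of the growth factor receptor HER2. Neither the construct and its promoter nor the strain, age and sex of the mice are given in the sources used here, nor whether any mouse gave more than 1 tumour. The tumours may therefore not all be independent, while the tests treat them as if they were. mRNA was enriched and sequenced as directional libraries. Library totals ran from 35030920 to 38464541 counts in EV and from 32686558 to 34804640 in p95HER2 tumours and did not overlap. The tumour tags also separate the groups, and the tag of p95HER2 1 lies far from all others, so the genotype cannot be told apart from handling that followed tag or depth. Epithelial markers summed to 2083 to 3391 CPM in EV and 2170 to 2746 CPM in p95HER2 tumours, and all 10 were detected. Immune, skeletal muscle, adipocyte, endothelial and fibroblast markers were detected as well, so each library holds RNA of several cell types. In such bulk RNA, fewer cells of a type and less RNA per cell cannot be told apart.

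Genes that lie next to each other on a chromosome usually have unrelated functions, and each is read from its own promoter. The stretch is of this mixed kind. It carries housekeeping genes such as the ribosomal protein genes Rpl5, Rpl6 and Rplp0, signalling genes such as the phosphatase gene Ptpn11, and, at its near end, a cluster of bone and tooth matrix genes that includes Spp1 and Dmp1. A set of neighbours with mixed functions that differs together between tumours is therefore described here first by position and then by function.

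Promoters are shown for the 5 members on which most of the results turn. Suds3 and Clip1 are the first and last genes of a run of members called the inner block here, Hspb8 and Zcchc8 are their neighbours outside it, and Spp1 is the member with the highest fold change. Each sequence is 300 bases from RefSeq (GRCm38.p6), 250 before to 50 after the RefSeq gene start, read 5′ to 3′ on the gene's own strand. Capitals mark 3 textbook promoter motifs on either strand: the GC box (GGGCGG or CCGCCC), the CCAAT box (CCAAT or ATTGG) and the TATA box (TATAAA or TTTATA).
Hspb8: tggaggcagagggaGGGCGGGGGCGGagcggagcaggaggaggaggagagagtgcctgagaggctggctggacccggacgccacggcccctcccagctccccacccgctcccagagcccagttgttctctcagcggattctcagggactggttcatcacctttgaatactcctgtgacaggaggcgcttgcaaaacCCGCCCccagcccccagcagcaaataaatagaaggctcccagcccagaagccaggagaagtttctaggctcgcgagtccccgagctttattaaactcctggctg
Suds3: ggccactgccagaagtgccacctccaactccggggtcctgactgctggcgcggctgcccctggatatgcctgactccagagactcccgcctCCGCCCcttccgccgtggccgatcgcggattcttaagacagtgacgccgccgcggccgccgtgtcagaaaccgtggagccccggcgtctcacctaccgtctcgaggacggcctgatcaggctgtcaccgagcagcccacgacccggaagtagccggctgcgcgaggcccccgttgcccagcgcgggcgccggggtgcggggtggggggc
Clip1: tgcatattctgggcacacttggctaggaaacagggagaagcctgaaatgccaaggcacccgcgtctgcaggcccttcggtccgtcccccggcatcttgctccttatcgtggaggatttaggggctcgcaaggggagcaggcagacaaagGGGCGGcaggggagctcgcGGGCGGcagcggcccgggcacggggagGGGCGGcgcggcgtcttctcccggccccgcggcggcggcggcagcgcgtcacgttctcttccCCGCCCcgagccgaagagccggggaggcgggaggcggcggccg
Zcchc8: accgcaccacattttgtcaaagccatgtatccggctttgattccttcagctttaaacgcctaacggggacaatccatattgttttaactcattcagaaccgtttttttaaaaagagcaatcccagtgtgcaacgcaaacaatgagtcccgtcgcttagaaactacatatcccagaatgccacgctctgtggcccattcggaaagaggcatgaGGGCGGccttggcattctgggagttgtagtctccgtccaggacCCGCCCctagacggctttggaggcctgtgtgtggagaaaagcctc
Spp1: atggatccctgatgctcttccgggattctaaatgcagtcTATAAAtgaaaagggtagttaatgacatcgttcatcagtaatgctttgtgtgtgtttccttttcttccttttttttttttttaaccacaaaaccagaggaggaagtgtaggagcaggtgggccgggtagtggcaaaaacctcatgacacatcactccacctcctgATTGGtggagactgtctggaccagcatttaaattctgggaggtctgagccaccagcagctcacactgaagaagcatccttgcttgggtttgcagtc
They lie on chromosome 5 at 116422815 to 116423114 (Hspb8, minus strand), 117115944 to 117116243 (Suds3, minus), 123684312 to 123684611 (Clip1, minus), 123720995 to 123721294 (Zcchc8, minus) and 104434861 to 104435160 (Spp1, plus). The RefSeq start lies 0 (Hspb8), 120 (Suds3), 257 (Clip1), 56 (Zcchc8) and 7 (Spp1) bases from the start in the GENCODE positions used for the members, so the Clip1 sequence lies inside the gene as GENCODE places it. The promoters of Hspb8, Suds3, Clip1 and Zcchc8 hold 3, 1, 4 and 2 GC boxes and no CCAAT or TATA box in this window. The Spp1 promoter holds 1 CCAAT box and 1 TATA box and no GC box. Among 11866 promoters of tested genes in the same table, 61.7% held a GC box, 38.1% a CCAAT box and 7.78% a TATA box. Genes on both sides of each edge thus carried the GC box, the most frequent motif of the 3. No comparison of all members' promoters was made. The table held 195 of the 262 members (74.4%) and 48 of the 68 block genes (70.6%), beside 76.0% of all genes of at least 2 CPM.

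Over the 262 members the median log2 fold change, p95HER2 minus EV, was -0.08, which is 5.53% lower, with quartiles of -0.21 and 0.01 and a range from -1.38 to 1.29. Over all 17123 genes tested the median was -0.01. The value was below 0 in 188 members. edgeR's quasi-likelihood test called 37 members lower (14.1%) and 8 higher (3.05%) at an adjusted p under 0.05, and of all genes tested 4.45% were called lower and 5.73% higher. The CPM ranges of the EV and p95HER2 tumours overlapped for all 262 members, and of all genes tested 0.111% lay lower and 0.677% higher in p95HER2 tumours without overlap. Without p95HER2 2 the members called lower were 21, and without p95HER2 8 they were 48. With immune marker level added to the model, 1 member was called lower, Arhgap24, and 1 higher, Lrrc8c, beside 0.625% and 1.59% of all genes.

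The difference was not spread evenly over the stretch. In the order of the chromosome, 140 members up to the heat shock protein gene Hspb8 had a median of -0.06, then 68 members from Suds3 to Clip1 had a median of -0.31, and the 54 members that follow had a median of -0.03. The 68 genes start between 117091680 and 123577795, a span of 6.49 Mb, and form the inner block. The limits of this block were set after the values were seen, so no test is given for it. Its quartiles were -0.36 and -0.18, 63 of its 68 members lay below 0, 24 were called lower (35.3%) and 0 were called higher by edgeR, beside 4.45% and 5.73% of all genes. None was higher at an unadjusted p under 0.05 either, and DESeq2 and limma voom called 34 and 35 lower and 0 higher. DESeq2 called 6.59% of all genes lower and 7.24% higher, and limma voom 6.32% and 7.33%. Of the 194 members outside it, 13 were called lower (6.70%) and 8 higher (4.12%). The name of a lowered stretch thus fits the inner block by these values, while the members outside it had a median of -0.06. With immune marker level added to the model, the median of the block was -0.20 and edgeR called 0 of its members, beside 0.625% lower and 1.59% higher of all genes. In that model 23 block members were lower at an unadjusted p under 0.05, and the share of all genes at that limit is not given here.

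**Figure D1:**
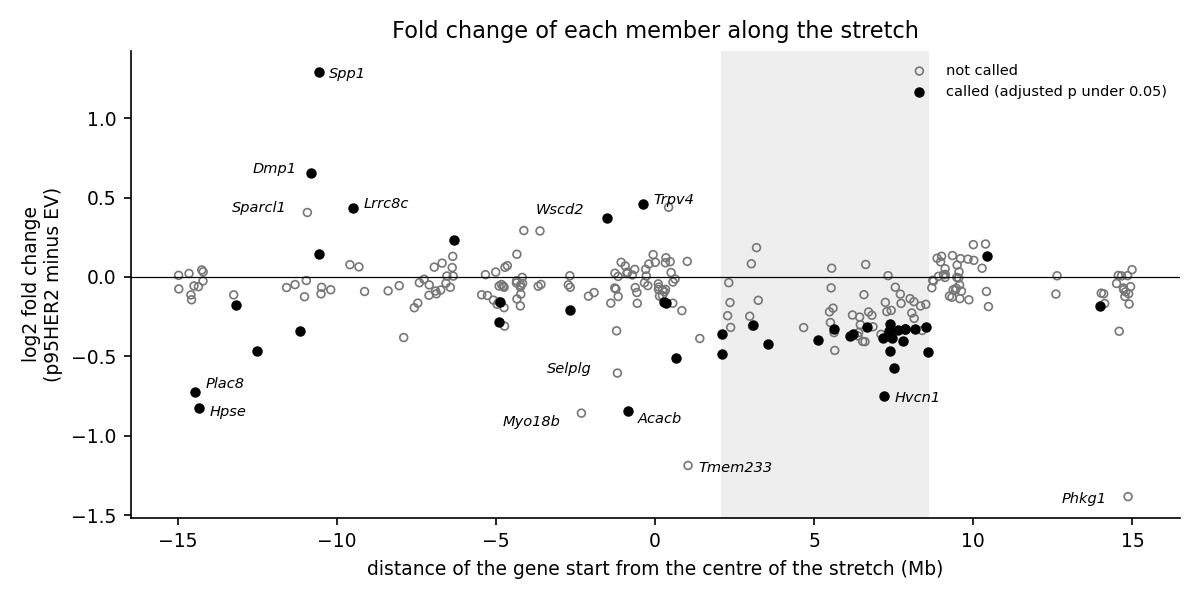
Log2 fold change of each of the 262 members (vertical axis, p95HER2 minus EV) against the distance of its start from the centre of the stretch in Mb (horizontal axis), with called genes filled and the inner block shaded. The block's members lie around -0.31, members on either side lie around 0, and single genes such as Spp1 (1.29) and Phkg1 (-1.38) stand far from both.

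Bins of 2 Mb showed the same course. Medians lay between -0.12 and 0.07 in the 8 bins from 100 to 116 Mb. They were -0.28 (10 genes), -0.30 (7 genes), -0.31 (24 genes) and -0.24 (36 genes) in the 4 bins from 116 to 124 Mb. They were 0.01 (28 genes), -0.05 (2 genes) and -0.10 (18 genes) in the bins from 124 Mb to the end. The lower values thus filled a run of neighbouring bins and left those on both sides near 0. The rest of chromosome 5 did not share the direction: 371 genes before 100 Mb had a median of 0.05 and 213 genes after 130 Mb had a median of 0.16. On the other chromosomes 12169 genes of at least 2 CPM had a median of -0.0030.

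At the first edge, Hspb8, a small heat shock protein gene of muscle and stressed cells, had 34.5, 42.6 and 55.0 CPM (lowest, median, highest) in EV and 24.7, 29.99 and 59.2 CPM in p95HER2 tumours. Its log2 fold change was -0.39 (SE 0.15) and it was not called. Suds3 (ENSMUSG00000066900, 117091680 to 117116113), a subunit of the Sin3 histone deacetylase complex, had 151, 212 and 245 CPM in EV and 131, 151 and 205 CPM in p95HER2 tumours. Its log2 fold change was -0.36 (SE 0.10). All 8 p95HER2 tumours lay below the EV median of Suds3. The ranges overlap: p95HER2 8 had 205 CPM and the next highest p95HER2 tumour 162, both above the lowest EV value of 151. Hspb8 and Suds3 thus had like fold changes, and their r values given further on lie far apart in EV and closer in p95HER2 tumours.

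At the far edge, Clip1 (ENSMUSG00000049550, 123577795 to 123684618), which encodes a protein that binds the growing ends of microtubules, had 179, 242 and 336 CPM in EV and 138, 177 and 273 CPM in p95HER2 tumours. Its log2 fold change was -0.47 (SE 0.14). Zcchc8 (ENSMUSG00000029427, 123698294 to 123721100), a subunit of a nuclear RNA targeting complex, had 70.4, 77.0 and 83.6 CPM in EV and 65.6, 73.3 and 76.4 CPM in p95HER2 tumours, a difference of -0.07 on the log2 scale (SE 0.04). The far edge was therefore a step between direct neighbours: Clip1 was called lower, while Zcchc8 differed little and its groups overlapped widely.

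The level of a set of genes in a tumour was taken as the median over the genes of log2(CPM + 0.5) minus each gene's mean over the 18 tumours. In EV tumours 1 to 10 the level of the inner block was 0.22, 0.14, 0.21, -0.10, 0.40, -0.08, 0.30, -0.05, 0.32 and -0.12. In p95HER2 tumours 1 to 8 it was -0.21, -0.35, -0.15, -0.09, -0.16, -0.24, -0.08 and 0.18. The EV tumours were spread unevenly: 6 lay between 0.14 and 0.40 and 4 between -0.12 and -0.05. The gap between them was 0.20, where the next largest gap was 0.09. Whether these 10 tumours form separate sets was not tested. Those 4 EV tumours lay within the range of the p95HER2 tumours, and p95HER2 8 lay within the range of the 6 higher EV tumours. The group means were 0.12 ± 0.20 (SD, n = 10) in EV and -0.14 ± 0.16 (SD, n = 8) in p95HER2 tumours, a difference of -0.26 that is larger than the SD within either group, while the ranges overlap.

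The members outside the block had levels of 0.02 ± 0.02 (SD, n = 10) in EV and -0.02 ± 0.02 (SD, n = 8) in p95HER2 tumours, a difference of -0.04. This difference, though smaller than that of the block, was also larger than the SD within either group (0.018 and 0.021). Here too the ranges overlap. Over all 262 members the levels were 0.04 ± 0.04 and -0.04 ± 0.02, a difference of -0.08. On the other side of the stretch, genes of chromosome 5 after 130 Mb had levels of -0.07 ± 0.08 in EV and 0.08 ± 0.05 in p95HER2 tumours, a difference of 0.15 in the other direction.

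**Figure D2:**
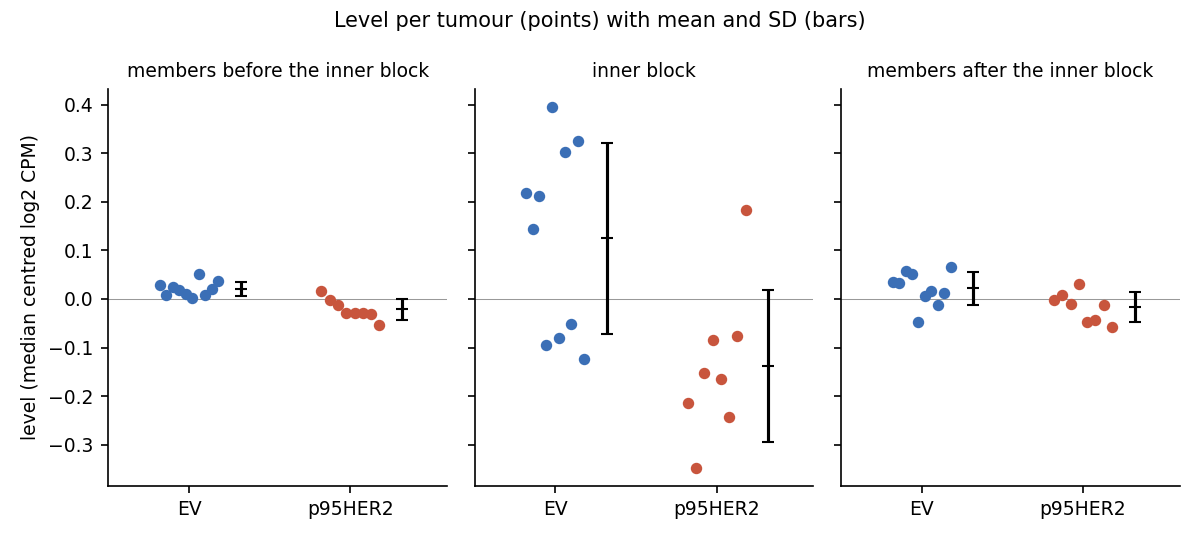
Level of the members before, in and after the inner block (vertical axis, median centred log2 CPM) for each EV and p95HER2 tumour (points), with the mean and SD of each group as bars. In the block the EV tumours lie in 6 higher and 4 lower points and 1 p95HER2 tumour lies at 0.18, while the tumours before and after the block stay near 0.

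The spread between tumours of the same group was not used to choose the stretch. Within EV tumours the SD of the block's level was 0.196. In 160 other genome windows of the block's length with at least 30 expressed genes it ran from 0.0153 to 0.121, with a median of 0.0353, so 0 windows had a larger SD. Within p95HER2 tumours the SD was 0.156, where the other windows ran from 0.00815 to 0.0784 and 0 were larger. Without p95HER2 8 it was 0.0946, and the windows then ran from 0.00881 to 0.0845, so 0 were larger still. Tumours of either group thus differed from each other more in this block than in any of those windows, and these SDs are given as a description because the limits of the block were set from the data. In EV tumours the next largest SDs also came from chromosome 5, in windows that start at 143036144 (0.121), 19799940 (0.117) and 136550028 (0.107). A chromosome 11 window followed (0.105). In p95HER2 tumours the next largest was on chromosome 1 (0.0784). A wide spread in EV tumours was thus not particular to the block. Over the whole 30 Mb stretch the SD was 0.0401 in EV, where 3 of 57 other windows of 30 Mb were larger, and 0.0201 in p95HER2 tumours, where 40 of 57 were larger.

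**Figure D3:**
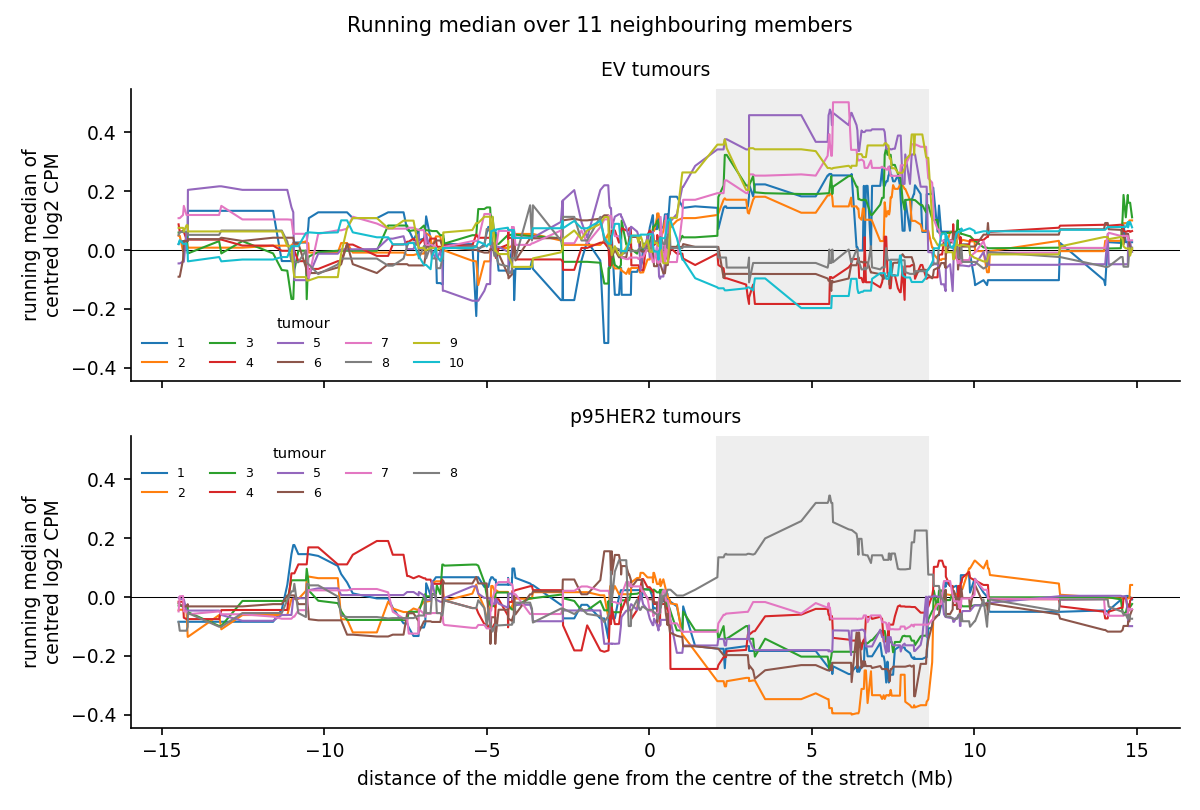
Running median of centred log2 CPM over 11 neighbouring members (vertical axis) along the stretch (horizontal axis, Mb from its centre), with 1 line per tumour for EV (top) and p95HER2 (bottom) and the inner block shaded. Lines of both groups spread apart at the start of the block and come together again at its end, with 6 EV tumours and p95HER2 8 running mostly above 0.

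The shift ran along the whole block. The block was cut into 4 runs of 17 neighbouring members, and EV 5 had levels of 0.38, 0.41, 0.41 and 0.32 in them. EV 10 had levels of -0.14, -0.16, -0.08 and -0.09, and p95HER2 2 had levels of -0.31, -0.38, -0.35 and -0.37. The value of p95HER2 8 was 0.15, 0.23, 0.17 and 0.10. These tumours kept 1 sign over all 4 runs, whether high or low. EV 1 was an exception, with a level of -0.00 in the run from Tpcn1 to Acad10 and 0.17 to 0.28 in the other 3.

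Each member was then correlated, within a group, with the level of the block's other members. These r values are descriptions over 10 or 8 tumours that share library, scaling and the level itself. The limits of the block were also set from these data, so a higher r inside them is no support for the limits. In EV tumours the median r was 0.84 (quartiles 0.63 and 0.92) over the 68 block members and 0.00 over the 194 members outside, and r was above 0.5 for 56 and 13 of them. In p95HER2 tumours the medians were 0.85 and -0.12, with 54 and 16 above 0.5. Both r values were above 0.5 for 51 of 68 block members and for 2 of 194 members outside, Cds1 and Coro1c. Because of the gap among the EV tumours and the high level of p95HER2 8, the values were also taken without the tumours beyond them. Over the 6 higher EV tumours alone the median r was 0.59 in the block and -0.12 outside, and over the 7 p95HER2 tumours without p95HER2 8 it was 0.67 and -0.10. The r values in the block were thus lower once these tumours were left out, and block members still lay above the members outside.

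The same r was read at the edges, which it cannot place, because the limits of the block were set from these data. Hspb8 had an r of -0.23 in EV and 0.68 in p95HER2 tumours, and its neighbour Suds3 had 0.94 and 0.95. Clip1 had an r of 0.95 in EV and 0.98 in p95HER2 tumours, and its neighbour Zcchc8 had 0.37 and -0.36. Hspb8, with a fold change like that of the block, thus did not follow the block within EV tumours, while its r in p95HER2 tumours was 0.68.

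**Figure D4:**
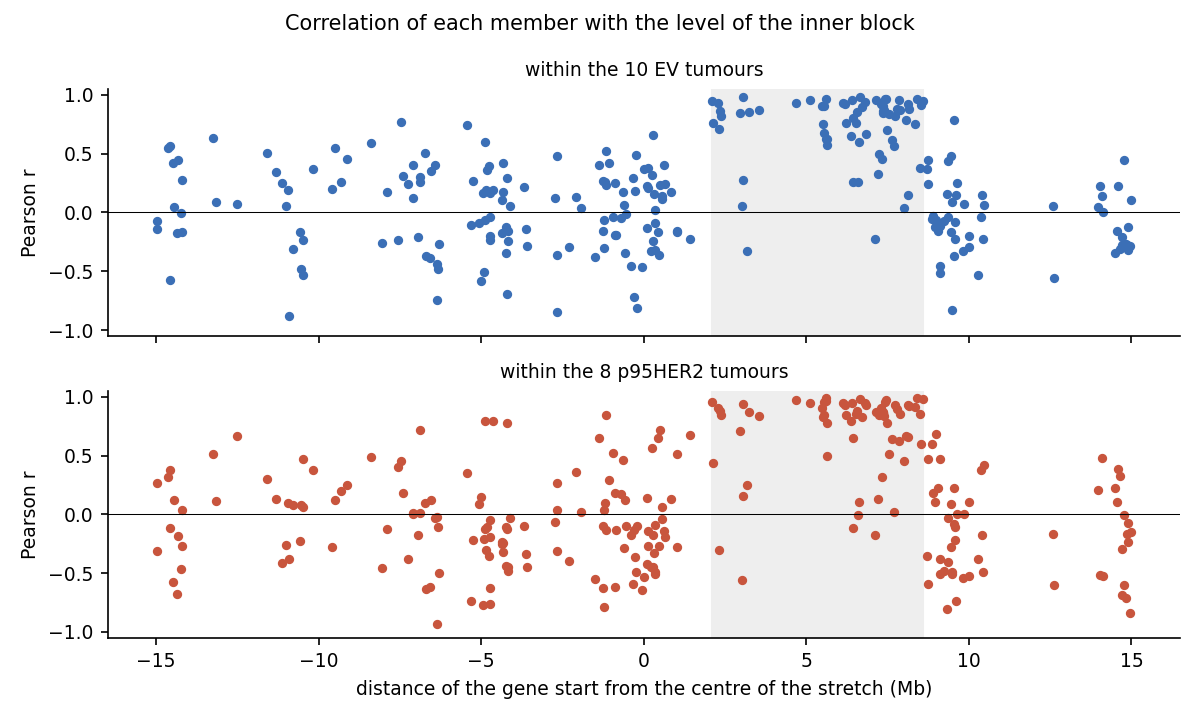
Pearson r of each member with the level of the inner block (vertical axis, the member itself left out) along the stretch (horizontal axis, Mb from its centre), within the 10 EV tumours (top) and the 8 p95HER2 tumours (bottom), with the block shaded. Block members crowd near 1 in both groups (medians 0.84 and 0.85) and members outside scatter around 0 (medians 0.00 and -0.12).

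How closely a block member followed went with its CPM as well. The 23 block members of at least 100 CPM had a median r of 0.92 in EV tumours, the lowest being 0.65, and a median log2 fold change of -0.32. The 11 block members under 10 CPM had a median r of 0.38 and a median log2 fold change of -0.30. Of the 12 block members with an r under 0.5 in EV tumours, 7 were under 10 CPM. Among the other 5 were Myl2, the myosin light chain of heart and slow muscle (r -0.23), the calcium-binding protein gene Tesc (r 0.05) and the calcium channel gene Orai1 (r 0.04). Some members that were not called followed the block too: Tpcn1, an endolysosomal channel gene, had r values of 0.91 in EV and 0.96 in p95HER2 tumours beside a log2 fold change of -0.07 (SE 0.11). Aldh2, the mitochondrial aldehyde dehydrogenase gene, had r values of 0.85 and 0.88 beside -0.11 (SE 0.07).

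The block and the other members also had much in common. Median gene length was 26.5 kb in the block, 23.5 kb in the members outside and 23.0 kb in all 13028 genes of at least 2 CPM. Genes on the plus strand made up 55.9%, 52.6% and 50.4%. Median CPM was higher in the block, at 55.0, than outside it, at 30.04, or in all such genes, at 34.7.

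By function the members are a mix, and 7 lists of members were described. They were written with earlier results of these data known, so their counts support nothing about function. The counts of each list stand beside 4.45% lower and 5.73% higher of all genes tested by edgeR. In the inner block as a whole 35.3% were called lower. Some genes named from here on were picked after their values were seen.

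Transcription and chromatin genes (21 members) had a median of -0.14, with 4 called lower by the edgeR test, and the 7 that lie in the block had a median of -0.33. Med13l, a subunit of the kinase module of the Mediator complex, had 167, 205 and 277 CPM in EV and 124, 158 and 217 CPM in p95HER2 tumours, and was called lower (log2 fold change -0.42, SE 0.12), a call that ended without p95HER2 2, as did that of Suds3. The histone demethylase gene Kdm2b was called lower too (log2 fold change -0.33, SE 0.10). Tbx3, a transcription factor gene that mammary gland development depends on, had 36.4, 49.9 and 69.0 CPM in EV and 27.2, 40.8 and 68.7 CPM in p95HER2 tumours (not called, log2 fold change -0.32, SE 0.16). Tbx3 followed the block closely all the same, with r values of 0.93 in EV and 0.98 in p95HER2 tumours.

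Ribosome, translation and RNA genes (22 members) had a median of -0.05, with 2 called lower, and their 4 block members had a median of -0.34. Rpl6, of the large ribosomal subunit, lies in the block and had 1231, 1653 and 1814 CPM in EV and 1104, 1339 and 1703 CPM in p95HER2 tumours (not called, log2 fold change -0.24, SE 0.09). Its r with the block was 0.92 in EV and 0.93 in p95HER2 tumours. Rplp0 and Rpl5, which encode proteins of the same subunit but lie before the block, had log2 fold changes of -0.17 and -0.12 and r values of 0.14 and 0.13 in EV tumours. Rpl6 thus followed the block, in which it lies, within both groups, while Rplp0 and Rpl5 did not follow it within EV tumours. How Rplp0 and Rpl5 went with their own neighbours was not compared. The 2 called lower were Ddx54 (-0.33), an RNA helicase gene, and Rbm19 (-0.40), a ribosome assembly gene, both in the block.

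Cell cycle, DNA replication and repair genes (19 members) had a median of -0.06, with 3 called lower, and their 3 block members had a median of -0.32. Anapc5, a subunit of the anaphase-promoting complex, had 348, 428 and 591 CPM in EV and 286, 340 and 415 CPM in p95HER2 tumours, and was called lower (log2 fold change -0.40, SE 0.10). All 8 p95HER2 tumours lay below its EV median. Anapc7, another subunit of that complex in the block, had a log2 fold change of -0.21 and was not called. Outside the block, Ran, the GTPase gene of nuclear transport, had -0.10 and the cell cycle regulator gene Cdk2ap1 had 0.13, neither called.

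Mitochondrial and metabolic genes (25 members) had a median of -0.10, with 2 called lower. Their 3 block members had a median of -0.11, and edgeR called 0 of them, DESeq2 and limma voom 0 as well, with 0 at an unadjusted p under 0.05 by any of the 3. Those 3 are Aldh2 (-0.11), Acad10 (0.08), related to the acyl-CoA dehydrogenases of fatty acid breakdown, and Diablo (-0.17), whose product blocks inhibitors of apoptosis. Acad12, a block member that the list leaves out, had -0.41 at a mean of 3.75 CPM. Outside the block Cox6a1, a subunit of cytochrome c oxidase, had 0.12 and Chchd2, a mitochondrial regulator gene, had -0.11, neither called. The 2 called lower were Acacb, described further on, and Coq5 (-0.15), of coenzyme Q synthesis.

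Signalling genes (25 members) had a median of -0.22, with 6 called lower and 1 higher, and 14 of them lie in the block, with a median of -0.32 and 5 called lower. Ptpn11 (ENSMUSG00000043733), the gene of the phosphatase SHP2 that carries signals from receptor tyrosine kinases to Ras, had 207, 279 and 348 CPM in EV and 180, 208 and 252 CPM in p95HER2 tumours, and was called lower (log2 fold change -0.37, SE 0.09). All 8 p95HER2 tumours lay below its EV median, and the ranges overlap. Ppp1cc, a catalytic subunit of protein phosphatase 1, had 234, 342 and 375 CPM in EV and 202, 238 and 278 CPM in p95HER2 tumours and was called lower (-0.38, SE 0.10). Pebp1, an inhibitor of the kinase Raf, had 372, 515 and 598 CPM in EV and 370, 409 and 535 CPM in p95HER2 tumours (-0.24, SE 0.09, not called). The other 3 block members of this list called lower were Taok3 (-0.49), a kinase gene, Brap (-0.32), whose product binds Ras pathway proteins, and P2rx7 (-0.33), an ATP-gated channel gene. Ptpn11 and Pebp1, which act on opposite sides of Ras signalling, thus both had lower medians in p95HER2 tumours.

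Membrane traffic, transport and cytoskeleton genes (28 members) had a median of -0.07, with 7 called lower and 2 higher, and the 8 in the block had a median of -0.30, with 5 called lower. Atp2a2 (ENSMUSG00000029467), the calcium pump gene of the endoplasmic reticulum, had 500, 631 and 747 CPM in EV and 391, 469 and 650 CPM in p95HER2 tumours and was called lower (log2 fold change -0.38, SE 0.10). Its 4 lowest EV values came from the 4 EV tumours that were low in the block as a whole, and its highest p95HER2 value from p95HER2 8. Arpc3, a subunit of the Arp2/3 complex that branches actin filaments, had 204, 267 and 309 CPM in EV and 190, 214 and 270 CPM in p95HER2 tumours and was called lower (-0.29, SE 0.08), a call that ended without EV 5 or p95HER2 1, 2 or 5. The vesicle sorting genes Vps29 (-0.34) and Vps33a (-0.32) were called lower as well, beside Clip1. Outside the block, Dynll1, a dynein light chain gene, had -0.09 and was not called.

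The seventh list holds genes known from immune, bone, muscle or other non-epithelial cells (15 members), with a median of -0.34, 4 called lower and 2 higher. Several of the outlying members belong to it. A member was called outlying where its log2 fold change lay more than 3 scaled median absolute deviations from the median of the members, that is below -0.53 or above 0.36. The scaled deviation was 0.15. There were 16 such members, 9 low and 7 high, and only Hvcn1 and Gm43361 lie in the inner block.

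Spp1 (ENSMUSG00000029304, 104435118 to 104441050), which encodes osteopontin, a secreted phosphoprotein of bone, macrophages and many tumours, had 225, 345 and 762 CPM in EV and 527, 796 and 1882 CPM in p95HER2 tumours. It was called higher, with a log2 fold change of 1.29 (SE 0.28), and the EV median was below every p95HER2 tumour. The ranges overlap: EV 1 (762 CPM) and EV 10 (548 CPM) lay above the lowest p95HER2 tumour (527 CPM). Dmp1, a dentin and bone matrix protein gene of the same cluster, had 47.3, 67.7 and 83.3 CPM in EV and 58.9, 104 and 141 CPM in p95HER2 tumours, and was called higher (0.65, SE 0.13). Only p95HER2 7, at 58.9 CPM, lay below the highest EV tumour. Sparcl1, a matrix glycoprotein gene that lies beside them, had 266, 370 and 450 CPM in EV and 372, 442 and 753 CPM in p95HER2 tumours (0.41, SE 0.14, not called). p95HER2 4 had the highest value of all 3 of these neighbours, 1882, 141 and 753 CPM.

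Trpv4, a calcium channel gene that responds to stretch and osmotic pressure, had 27.8, 51.1 and 60.6 CPM in EV and 60.3, 69.6 and 80.9 CPM in p95HER2 tumours. It was called higher (log2 fold change 0.46, SE 0.11), and the ranges touch only between the highest EV and the lowest p95HER2 tumour. Lrrc8c, a subunit of volume-regulated anion channels, had 19.1, 21.8 and 29.2 CPM in EV and 21.9, 29.6 and 39.7 CPM in p95HER2 tumours and was called higher (0.43, SE 0.10). Wscd2, a gene of a membrane protein with a WSC domain, had 5.01, 7.12 and 8.96 CPM in EV and 7.46, 9.29 and 10.7 CPM in p95HER2 tumours and was called higher (0.37, SE 0.11), a call that was lost on leaving out any 1 of 7 tumours. Msi1, an RNA-binding protein gene of stem and progenitor cells, had 1.55, 3.96 and 5.91 CPM in EV and 3.92, 5.07 and 5.93 CPM in p95HER2 tumours (0.44, SE 0.21, not called). The highest log2 fold change below the outlying members was that of Ttc28, at 0.29, which was not called. The other 3 members called higher were Fgfrl1 (0.23), Pkd2 (0.14) and Bri3bp (0.13).

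Hpse, Plac8, Hvcn1 and Selplg, outlying members known from immune cells, were lower by value, while Spp1, which macrophages also make, was higher. Hpse, the heparanase gene, had 3.05, 4.79 and 8.14 CPM in EV and 1.49, 2.94 and 3.72 CPM in p95HER2 tumours and was called lower (log2 fold change -0.82, SE 0.19). Plac8, a gene expressed in myeloid and lymphoid cells, had 6.50, 13.3 and 17.1 CPM in EV and 4.48, 6.79 and 11.2 CPM in p95HER2 tumours and was called lower (-0.73, SE 0.22), a call that was lost on leaving out any 1 of 13 tumours. All 8 p95HER2 tumours lay below the EV medians of Hpse and Plac8. Hvcn1, the voltage-gated proton channel gene of phagocytes and B cells, lies in the block and had 5.94, 12.5 and 17.7 CPM in EV and 4.26, 7.67 and 10.1 CPM in p95HER2 tumours (-0.75, SE 0.19, called lower). Unlike most block members it had r values of only 0.33 in EV and 0.13 in p95HER2 tumours. Selplg, the leukocyte ligand of P-selectin, had 8.25, 15.98 and 23.1 CPM in EV and 5.64, 10.6 and 16.01 CPM in p95HER2 tumours (-0.61, SE 0.21, not called).

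Immune markers were lower with these genes. Of 22 immune markers 19 were tested and 18 were below 0, and none lies in the stretch. Of these markers 7 were called lower and 1 higher, beside 4.45% and 5.73% of all genes. Their summed level ran from 759 to 1445 CPM in EV and from 529 to 1001 CPM in p95HER2 tumours. With immune marker level added to the model, the log2 fold changes were -0.19 for Hpse, -0.07 for Plac8, -0.08 for Hvcn1, 0.10 for Selplg and 0.52 for Spp1, and none of these was called. The part of immune cells in the group differences was not tested further.

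Outlying members known from muscle were lower by value too, and EV 1 was the lowest EV tumour for each of the next 3 genes. Phkg1, the muscle subunit of phosphorylase kinase, had 0.545, 9.98 and 17.0 CPM in EV and 0.149, 3.15 and 7.29 CPM in p95HER2 tumours (not called, log2 fold change -1.38, SE 0.56). Myo18b, an unconventional myosin gene of muscle, had 0.763, 12.1 and 21.3 CPM in EV and 3.05, 6.49 and 11.5 CPM in p95HER2 tumours (-0.86, SE 0.42, not called). Tmem233, a membrane protein gene, had 0, 5.17 and 9.48 CPM in EV and 0.0894, 1.91 and 4.40 CPM in p95HER2 tumours (-1.19, SE 0.61, not called). These 3 genes thus had low values in tumours of both groups. All 12 skeletal muscle markers were below 0. edgeR called 0 of them, with 4 at an unadjusted p under 0.05. DESeq2 called 1 and limma voom 2 of these markers lower, beside 6.59% and 6.32% of all genes. Their summed level ran from 126 CPM in EV 1 to 6547 CPM in EV 9 and from 355 to 3316 CPM in p95HER2 tumours, with no marker at 0. With the skeletal muscle level as a covariate the log2 fold changes were -0.43 for Phkg1, 0.18 for Tmem233 and 0.02 for Myo18b. The part of muscle RNA in these differences was not tested further.

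Acacb, an acetyl-CoA carboxylase gene expressed in muscle and fat, had 2.04, 8.62 and 13.8 CPM in EV and 3.48, 4.13 and 5.70 CPM in p95HER2 tumours and was called lower (log2 fold change -0.84, SE 0.26). The call was lost on leaving out any 1 of 15 tumours and with the immune or muscle level as a covariate. Of 7 adipocyte markers 6 were tested and all 6 were called lower, beside 4.45% of all genes. The summed level of these markers was 29.0 to 128 CPM in EV and 9.49 to 36.6 CPM in p95HER2 tumours. Plin1 and Lep were at 0 in some tumours. EV 1 had the highest adipocyte level and the lowest Acacb value, and the part of fat cells was not tested. The last outlying member, Gm43361, is annotated as a transcript still to be verified inside Atp2a2 on the opposite strand. It had 4.27, 6.67 and 12.3 CPM in EV and 3.35, 4.62 and 6.79 CPM in p95HER2 tumours (-0.57, SE 0.18, called lower). The call was lost on leaving out any 1 of 10 tumours, and since the strand option of the counting is not given, its reads cannot be told apart from those of Atp2a2.

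**Figure D5:**
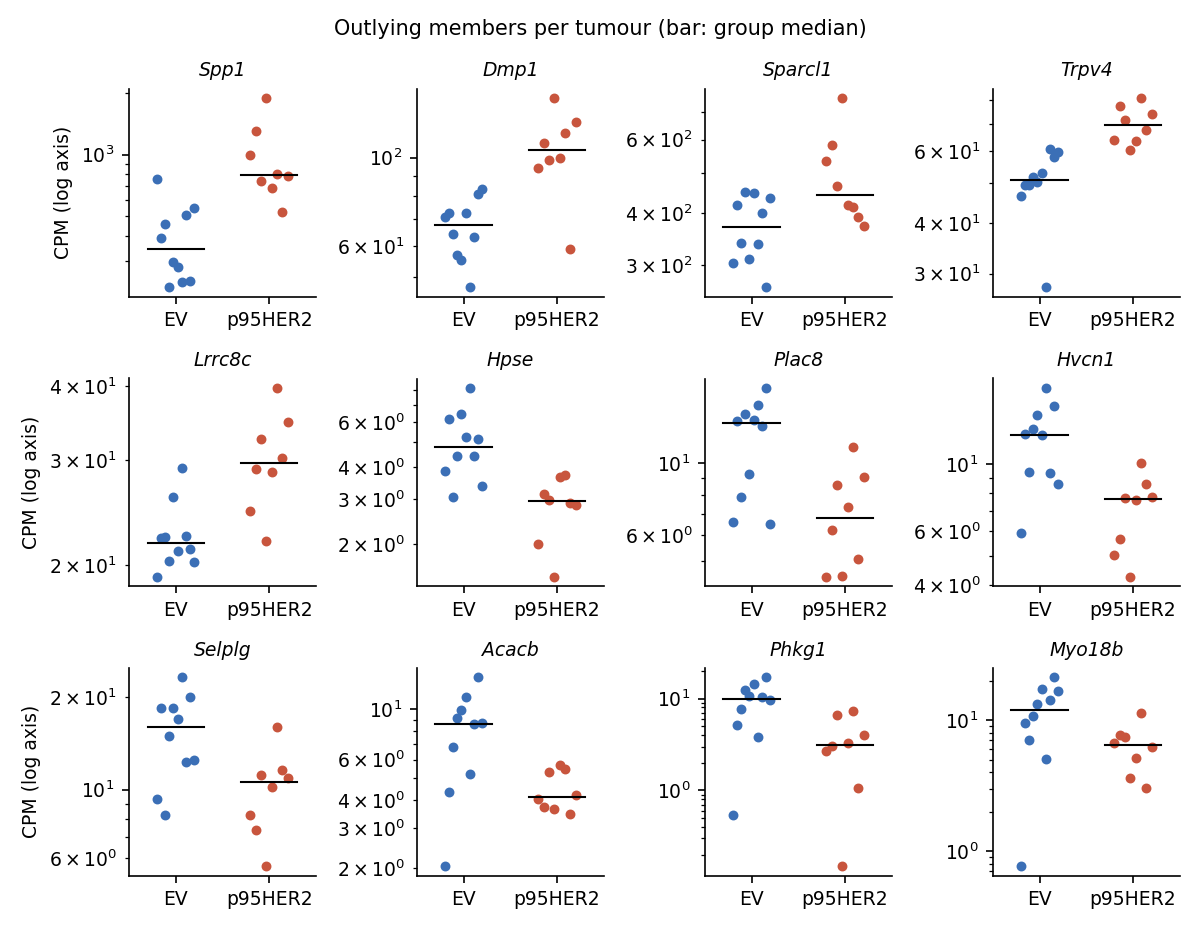
CPM per tumour (vertical axes, log scale) in EV and p95HER2 tumours for 12 of the 16 outlying members, with a bar at each group median. Spp1, Dmp1, Trpv4 and Lrrc8c lie higher and Hpse, Plac8 and Acacb lower in p95HER2 tumours with some overlap, and EV 1 is the lowest EV point of Phkg1 (0.545) and Myo18b (0.763).

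Beside the outlying genes, 10 members outside the block were called lower, all within the outlying limits, and Coq5 was given above. Bicdl1, a gene of a dynein adaptor, had 3.19, 4.03 and 4.87 CPM in EV and 2.02, 2.90 and 3.605 CPM in p95HER2 tumours (fold change -0.51 on the log2 scale, SE 0.12). Arhgap24, which encodes a Rac-directed GTPase-activating protein, had -0.47, the ubiquitin ligase adaptor gene Klhl8 had -0.34 and the zinc finger gene Zfp605 had -0.29. Hps4 (-0.21), of lysosome-related organelles, Stx2 (-0.18), a syntaxin gene, Wdfy3 (-0.17), of selective autophagy, and Chfr (-0.16), a mitotic checkpoint gene, were called too, as was Triap1 (-0.17), an apoptosis inhibitor gene.

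The 262 members end with Hnrnpdl (0.01) on one side and Gusb (0.05) on the other, and the nearest genes of at least 2 CPM beyond them, Gm17092 and Asl, had log2 fold changes of 0.01 and 0.06. Members just above the limit of 2 CPM were Gm42595 (2.12), Gm26515 (2.19) and Gm42979 (2.20), and genes just below it were Gm13841 (1.9997), Gpat3 (1.97) and A930024E05Rik (1.91). The log2 fold changes of those just above were 0.14, -0.05 and 0.01, in the same order. Those of the genes just below were -0.13, 0.63 and -0.01, where 0.63 is that of Gpat3, a triglyceride synthesis gene.

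The Oas and Gbp families of interferon-induced genes, left out by the rule, hold 13 genes of this level in the stretch, and the 6 Oas genes inside the block had log2 fold changes from -1.42 (Oas2) to -0.51 (Oas1b). Their r with the block ran from 0.14 to 0.62 in EV and from 0.31 to 0.65 in p95HER2 tumours, below the block medians of 0.84 and 0.85.

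Relations of the level of all 262 members with other measures were computed within each group. In the 8 p95HER2 tumours Pearson's r was -0.26 with the immune marker level (Spearman's rho -0.36, exact permutation p = 0.529 and 0.389), -0.22 with the skeletal muscle level (rho -0.19, exact p = 0.596 and 0.665) and 0.38 with log2 Erbb2 CPM (rho 0.31, exact p = 0.362 and 0.462). It was -0.26 with the level of the other chromosome 5 genes (rho 0.05, exact permutation p = 0.545 and 0.935) and 0.01 with the library total (rho 0.00, exact p = 0.984 and 0.988). In the 10 EV tumours, whose levels over all members showed no gap above 0.04, r was 0.15 with the immune marker level (rho 0.08, permutation p = 0.680 and 0.834), -0.33 with the skeletal muscle level (rho -0.42, permutation p = 0.357 and 0.234) and -0.30 with log2 Erbb2 CPM (rho -0.42, permutation p = 0.392 and 0.227). It was -0.10 with the other chromosome 5 genes (rho -0.15, permutation p = 0.782 and 0.679) and 0.07 with the library total (rho -0.09, permutation p = 0.856 and 0.810). Adjusted over the 10 relations computed, the permutation p was 0.951 to 0.984 for r and 0.988 for rho, two-sided. Without the 2 tumours farthest from the median of each measure, r was 0.24, -0.35, 0.49, 0.42 and 0.31 in p95HER2 and 0.57, -0.26, 0.35, -0.17 and 0.16 in EV tumours, in the same order. None of these relations passed. Those with the immune level and the other chromosome 5 genes in p95HER2 tumours and that with Erbb2 in EV tumours changed sign, and whether r differed between the groups was not tested. Relations of the inner block's own level were not tested. EV 5, 7 and 9 had block levels of 0.40, 0.30 and 0.32 and levels of -0.15, -0.18 and -0.17 after 130 Mb. EV 10 had -0.12 and 0.05, while EV 4 had -0.10 and -0.09. EV 1, 2 and 3 had block levels of 0.22, 0.14 and 0.21 beside -0.03, -0.02 and -0.02 after 130 Mb. EV 6 and 8 had -0.08 and -0.05 beside -0.05 and -0.02. Among p95HER2 tumours, p95HER2 8 had 0.18 and 0.02, and p95HER2 2 had -0.35 and 0.14. Block levels of p95HER2 1, 3, 4, 5, 6 and 7 were -0.21, -0.15, -0.09, -0.16, -0.24 and -0.08. Their levels after 130 Mb were 0.11, 0.05, 0.10, 0.04, 0.13 and 0.09.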

How the data were processed

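For each of 18 tumours the authors deposited unnormalized counts of reads for 54532 Ensembl genes. STAR 2.5 and HTSeq 0.6.1 on build mm10 made them, per the submitters' processing notes. The strand option and annotation release are not given in those sources, which leaves overlapping genes on opposite strands uncertain. Groups came from the genotype labels, and replicates were numbered in accession order, which only names them. Gene positions and symbols came from GENCODE M21.

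Genes were kept by filterByExpr (minimum count 10, minimum total 15), scaled by TMM and compared with the robust quasi-likelihood F-test of edgeR 4.0.16 in R 4.3.3, tested on simulated data, with Benjamini-Hochberg adjustment over 17123 genes and calls at an adjusted p under 0.05. CPM used TMM-scaled totals. A log2 fold change is given with its standard error (SE). Levels used a pseudocount of 0.5. The most similar pair of libraries, p95HER2 1 and 2, differed beyond sampling noise (chi-square per degree of freedom 9.85), so all 18 were kept. The edgeR p-values judge each group difference against the spread between these tumours, taken as independent.

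The members and the lists were chosen with earlier results of these data known, and the inner block after values were seen. Genes named by rule were the outlying members, the 8 lowest and 8 highest log2 fold changes, members at the ends and at the CPM limit, the 3 of highest mean CPM, and the 3 of highest mean CPM in each list. Others were chosen after their values were seen. Alternatives were RLE scaling, library totals, a filter at 1 CPM or none, limma 3.58.1 voom with quality weights, DESeq2 1.42.0, immune or muscle level in the model, each tumour omitted in turn, another pseudocount, the mean over members and a limit of 10 CPM. A few results are not reported here.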

Additional observations from a re-analysis of the deposited data

Results flagged for a closer look

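In 86 groups of values, each 1 gene or level in 1 group of tumours, the highest and lowest tumour were compared with the nearest of the others, and 6 stood apart by Dixon's 95% limit. Chance alone gives about 5% of groups, 1 in 20.

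EV 1 stood apart as the lowest EV tumour for 3 genes: Phkg1 at 0.545 CPM (nearest 3.85), Myo18b at 0.763 CPM (nearest 5.01) and Tmem233 at 0 CPM (nearest 2.10). EV 1 also had the lowest summed skeletal muscle marker level, 126 CPM. EV 7 was the lowest EV tumour for Trpv4, at 27.8 CPM (nearest 46.6). p95HER2 7 was the lowest p95HER2 tumour for Dmp1, at 58.9 CPM (nearest 94.0). p95HER2 8 was the highest p95HER2 tumour for Suds3, the first gene of the inner block, at 205 CPM (nearest 162), and its level over the block was the highest of that group too, at 0.18.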

How the results depend on the processing

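No paired analysis was possible because the labels give no replicate numbers shared between the groups. Of 37 members called lower, 8 called higher and 24 block members called lower, no filter left 20, 5 and 16, and the immune marker level as a covariate left 1, 1 and 0. With that covariate 0.625% of all genes were called lower and 1.59% higher. Leaving out 1 tumour gave 21 to 48 members called lower, 4 to 10 called higher and 14 to 39 block members called lower. Those called lower were 21 without p95HER2 2, 22 without p95HER2 5, 23 without EV 5 or p95HER2 4, and 24 without EV 9. Those called higher were 4 without EV 5 or p95HER2 1, 2, 4 or 7, and 5 without EV 4 or EV 9. The block members called lower were 14 without p95HER2 2 and 39 without p95HER2 8. The call of Arpc3 ended without EV 5 or p95HER2 1, 2 or 5 (edgeR adjusted p up to 0.0620), and that of Suds3 and Med13l without p95HER2 2 (0.0512 and 0.0551). The r of the level of all members within p95HER2 tumours turned from -0.26 to 0.24 for the immune level and from -0.26 to 0.42 for the other chromosome 5 genes without the 2 farthest tumours, and that of log2 Erbb2 CPM within EV tumours from -0.30 to 0.35. The cause of these changes was not tested, and the r values without the 2 farthest tumours also rest on fewer samples.

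The medians kept their sign under every alternative run: leaving out 1 tumour, the members' median ran from -0.09 to -0.08 and the block's from -0.35 (without p95HER2 8) to -0.27 (without EV 5). The difference in block level ran from -0.31 to -0.23, and was -0.26 from Hspb8 to Clip1 and -0.28 with the Oas genes. Low counts limit the 11 block members under 10 CPM.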
